A study of Mus musculus with 6 samples.

Results

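The HOX cluster genes were described in mouse embryonic fibroblasts labelled as lacking both Abl kinases and in wild-type fibroblasts. Members were all genes whose symbol begins with Hoxa, Hoxb, Hoxc or Hoxd and a digit, each read by its probe set of highest mean signal across the 6 arrays. The rule gave 36 of the 18193 genes measured: 33 protein-coding HOX genes and 3 antisense RNAs, which are given apart. RefSeq lists 39 HOX genes in the mouse. The other 6 have no single-gene probe set and were not analysed here as genes.

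The study put RNA of 3 DKO and 3 WT repeats, labelled MEF-DKO 1 to 3 and MEF-WT 1 to 3, on Affymetrix arrays to ask how Abl kinases bear on gene expression. DKO cells carry a knockout of c-abl (Abl1) and arg (Abl2), and WT cells are wild-type. Both groups are of the C57BL/6 strain, derive from embryos at 14 days of gestation with male and female pooled, and were cultured with 10% heat-inactivated fetal bovine serum in DMEM, a standard growth medium. Nothing states how the alleles were made, whether a group is 1 line, or whether its 3 arrays came from separate cultures, and every p-value reflects array-to-array spread alone, possibly technical.

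HOX genes encode homeodomain transcription factors that tell cells where along the body they lie. They stand in 4 clusters, A to D. Genes at the same place in different clusters are paralogues and share a number; low numbers act toward the head, middle numbers in the trunk, and high numbers in the tail, the distal limb and the genital region. Fibroblasts keep in culture much of the HOX pattern of the body region they came from, held by Polycomb repressors and Trithorax activators, and retinoic acid sets parts of that pattern in the embryo. HOX proteins bind DNA together with PBX, MEIS and PKNOX proteins.

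Array medians ran from 13.4 to 14.7 signal units. Across genes, which are not independent replicates, the lowest correlation between arrays of a group was 0.9985 and the highest between arrays of different groups was 0.904. Differences between the groups were common: by limma on log2(signal + 16), adjusted over all genes, 24.3% of genes rose and 35.5% fell in DKO cells, 59.8% in all. None of the Abl1 and Abl2 probe sets passed as lower on the DKO arrays. The brightest Abl1 probe set had 177.7, 170.6 and 161.3 signal units on the DKO arrays, against 181.6, 183.0 and 189.9 on the WT arrays, which is -0.11 in log2 terms, with a 95% interval of -0.23 to 0.01 and an adjusted p of 0.107 by limma. The brightest Abl2 probe set averaged 254.1 ± 11.9 on the DKO arrays and 256.1 ± 9.30 on the WT arrays (SD, n = 3 each), which differed by -0.01 in log2 terms (adjusted p = 0.888 by limma). Another 2 Abl1 probe sets, both dim, rose, with means of 10.6 on DKO and 6.99 on WT arrays (log2 difference 0.21, adjusted p = 0.00119 by limma) and of 22.9 on DKO and 16.05 on WT arrays (log2 difference 0.28, adjusted p = 0.00584 by limma). Where these probes lie relative to the deleted parts is not given in the sources used here. Results are given by label, and "DKO arrays" and "DKO cells" mean those labelled DKO.

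Cell type markers differed too. Of 16 measured fibroblast markers, 9 rose and 3 fell, and their summed signal was 25258 to 26367 on the DKO arrays, against 14959 to 15782 on the WT arrays. The collagen genes Col1a2 (9.71 ± 2.16 on DKO and 2284 ± 143 on WT arrays) and Col3a1 (14.9 ± 4.09 on DKO and 1934 ± 109 on WT arrays) were low in DKO cells, whereas Pdgfra (1789 ± 56.7 on DKO and 9.99 ± 0.999 on WT arrays; all SD, n = 3) was low in WT cells. Another collagen gene, Col1a1, went the other way, with 1478 ± 42.3 on DKO and 412.8 ± 6.20 on WT arrays (SD, n = 3 each). Col5a1 passed as lower by only 0.11 on the log2 scale. Thy1, Fap and Lum were at or below the background level in both groups. Of 6 neural markers 2 rose and 3 fell, with sums of 461.5 to 548.7 on DKO arrays, against 199.99 to 219.5 on WT arrays. Sox2, a neural and stem cell factor, had 236.2 ± 51.8 signal units on DKO arrays and 3.67 ± 1.03 on WT arrays, and Nes, an intermediate filament gene of neural progenitors, 228.7 ± 17.02 on DKO arrays and 40.6 ± 1.62 on WT arrays. The neuronal genes Tubb3 (8.14 ± 1.54 on DKO and 52.9 ± 10.6 on WT arrays) and Map2 (30.3 ± 1.41 on DKO and 101.1 ± 4.50 on WT arrays; all SD, n = 3) went the other way. Sums of the 7 epithelial markers (0 rose, 3 fell) were 47.2 to 56.7 on DKO arrays, against 66.2 to 68.1 on WT arrays. Those of the 5 endothelial markers (0 passed, and 0 at an unadjusted p under 0.05 by limma) were 32.2 to 37.6 on DKO arrays, against 34.7 to 42.4 on WT arrays. Leukocyte marker sums (2 of 6 rose) were 147.2 to 159.8 on DKO arrays and 71.8 to 75.8 on WT arrays, and muscle marker sums (2 of 5 fell) were 48.9 to 58.0 on DKO arrays and 86.2 to 101.3 on WT arrays. Chondrocyte marker sums (1 of 4 rose, Sox9) were 128.8 to 156.0 on DKO arrays and 49.9 to 52.1 on WT arrays. Germ and pluripotent cell marker sums (1 of 4 fell, Nanog) were 19.0 to 20.8 on DKO arrays and 32.1 to 45.6 on WT arrays. The part of these differences in the HOX results was not tested. In RNA from a whole culture, fewer cells of a type and less RNA per cell cannot be told apart.

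HOX genes were lower in DKO cells or did not pass the test. Of the 33 protein-coding genes, 18 fell and 0 rose at an adjusted p of 0.05 by limma. That is 54.5% falling, against 35.5% of all genes, of which 24.3% rose. At an unadjusted p of 0.05 by limma, 20 fell and 0 rose, against 6817 falling and 4556 rising of all 18193 genes. In 22 HOX genes every DKO array lay below every WT array, against 39.0% of all genes. The order was the other way in 0 HOX genes, against 4681 of all 18193 genes. A group of 6 genes, Hoxb9, Hoxc13, Hoxc4, Hoxc9, Hoxb2 and Hoxb4, fell by at least 1 on the log2(signal + 16) scale, called 2-fold on the offset scale from here on: 18.2% of the HOX genes against 8.85% of all genes. In mean signal, with means below the background level set to it, Hoxa5, Hoxb3 and Hoxb6 were also at least 2-fold lower, 9 genes in all. The share of all genes that fell by that measure was not counted, and the 8.85% is no baseline for it. The median log2 difference was -0.10 over the HOX genes and -0.03 over all genes. The arrays' scaling sets small differences: with arrays scaled on the poly-A spike controls, RNAs added before labelling, 10 HOX genes fell and 9 rose by 0.08 to 0.24 on the log2 scale, while the median of all genes moved to 0.12 and the share of rising genes among all calls was 78.7%, against 40.6% in the scaling as deposited. With arrays scaled on the hybridization spike controls, 27 HOX genes fell and 0 rose, and the median of all genes moved to -0.12. The 10 that fell with poly-A scaling were Hoxa5, Hoxb2, Hoxb3, Hoxb4, Hoxb6, Hoxb9, Hoxc4, Hoxc9, Hoxc10 and Hoxc13.

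Most HOX probe sets were dim. A background level was taken as the 95th percentile of the mean signals of 39 olfactory receptor genes, which serve the sense of smell, and it lay at 9.47 signal units. Above it were 8 of the 33 HOX genes in DKO cells and 14 in WT cells. Of the 8 above it in both groups, 4 fell: Hoxb3, Hoxb4, Hoxc6 and Hoxc9. Another 6, Hoxa5, Hoxb2, Hoxb6, Hoxb9, Hoxc4 and Hoxc13, were above it in WT cells alone and so had to differ. The other 19 were below it in both groups, with mean signals of 1.97 to 8.31 on DKO arrays and 2.19 to 8.62 on WT arrays. Among those, 8 passed as lower, by 0.06 to 0.23 on the log2 scale: Hoxa2, Hoxa4, Hoxb5, Hoxb7, Hoxb13, Hoxc10, Hoxd8 and Hoxd11. Signals so low do not show that a gene was used in either group. Over all genes, 777 of the 5329 below the background level in both groups fell, against 8 of these 19 HOX genes. Above it in a group, 5680 of 12864 genes fell, against 10 of 14 HOX genes.

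**Figure D1:**
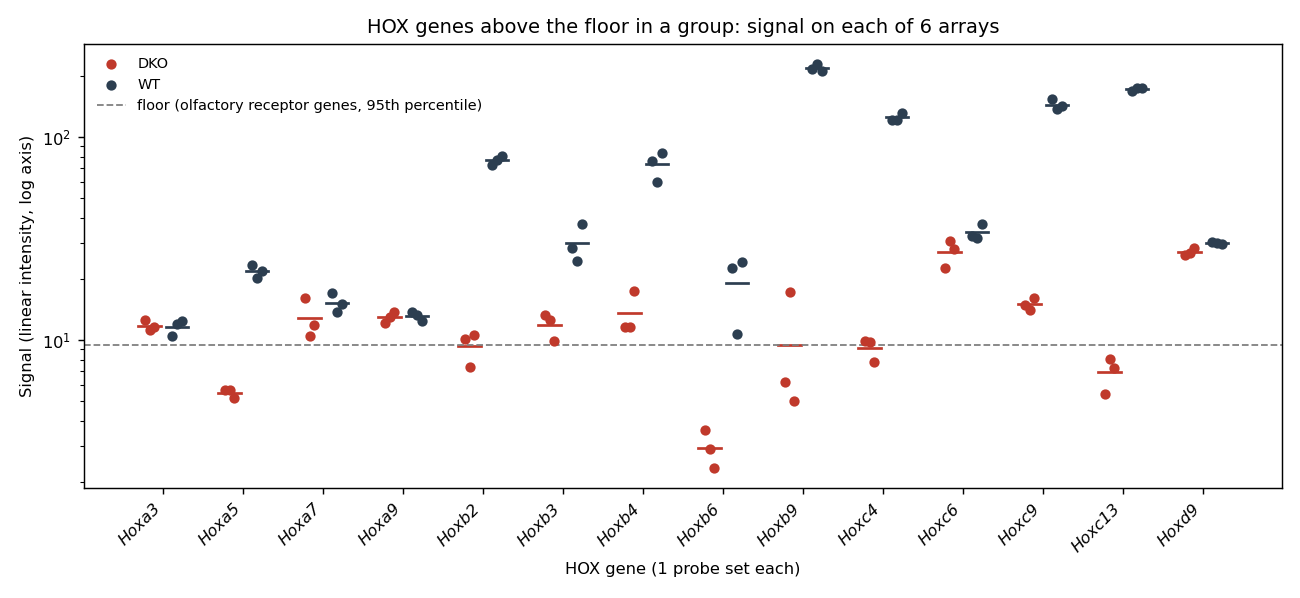
Signal on each array (log axis, linear intensity units) of the 14 HOX genes whose mean was above the background level in a group, with DKO arrays left of WT arrays; the dashed line is the background level of 9.47. Hoxb9, Hoxc13, Hoxc4, Hoxc9, Hoxb2, Hoxb4, Hoxb6, Hoxa5, Hoxb3 and Hoxc6 fell on the DKO arrays in the deposited scaling, while Hoxd9, Hoxa7, Hoxa9 and Hoxa3 did not pass.

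The falls were spread unevenly over the clusters. In cluster B, on chromosome 11, 8 of 9 measured genes fell, 3 of them 2-fold on the offset scale. In 9 of 9 every DKO array was below every WT array, against 39.0% of all genes. Of these 9, 4 were below the background level in both groups. In cluster C, on chromosome 15, 5 of 7 fell, 3 of them 2-fold on that scale. In cluster A, on chromosome 6, 3 of 9 fell and 0 by 2-fold on that scale, and in cluster D, on chromosome 2, 2 of 8 fell and 0 by 2-fold on that scale. The shares falling were 88.9% in cluster B, 71.4% in C, 33.3% in A and 25.0% in D, against 35.5% of all genes. Of all genes, 8.85% fell 2-fold on that scale. The median log2 differences were -0.72 in cluster B, -0.23 in C, -0.03 in A and -0.05 in D. The clusters also differed in how much could be read: 5 genes of cluster B, 4 of C, 4 of A and 1 of D were above the background level in a group. A difference between clusters was not tested. By paralogue number, 3 of 7 genes numbered 1 to 3 fell, 9 of 12 numbered 4 to 8, and 6 of 14 numbered 9 to 13, with 1, 2 and 3 of them falling 2-fold on the offset scale. The shares falling were 42.9%, 75.0% and 42.9% in that order, against 35.5% of all genes.

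**Figure D2:**
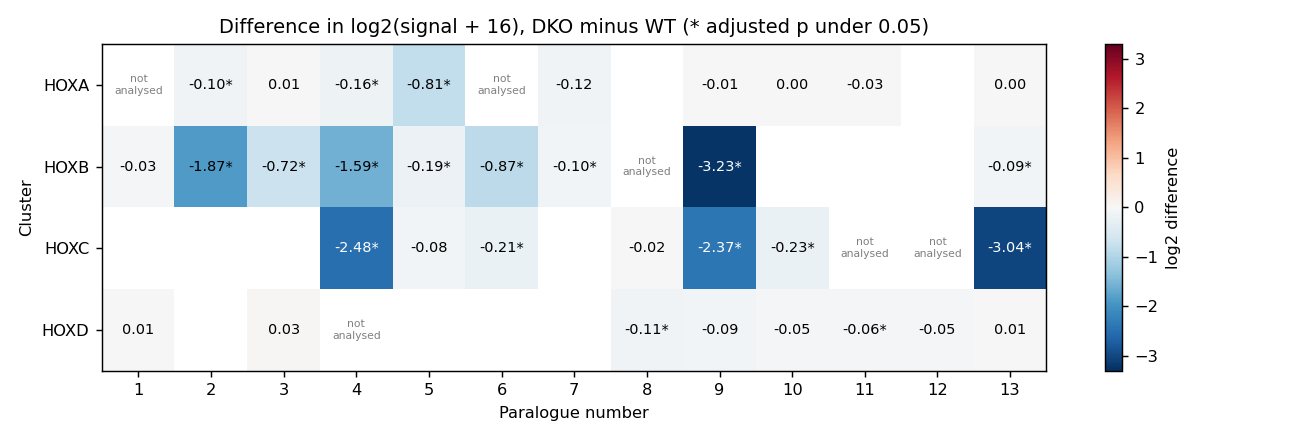
Log2 difference, DKO minus WT, of each measured protein-coding HOX gene, with the 4 clusters in rows and the paralogue number in columns. Cluster B holds 8 and cluster C 5 of the 18 genes that fell, and 0 rose in the deposited scaling (9 with poly-A scaling).

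The DNA before 3 of the fallen genes is shown because these are the only ones of the 10 falling above the background level that the RefSeq promoter table holds. Each run covers 250 bases before and 50 after the start of the gene, in the assembly GRCm38.p6, 5′ to 3′ on the gene's strand, with CG dinucleotides, the sites of DNA methylation, in capitals. Hoxa5 is read on the minus strand at chr6:52204538-52204837, Hoxb4 on the plus strand at chr11:96318017-96318316, and Hoxc4 on the plus strand at chr15:103034145-103034444.
Hoxa5: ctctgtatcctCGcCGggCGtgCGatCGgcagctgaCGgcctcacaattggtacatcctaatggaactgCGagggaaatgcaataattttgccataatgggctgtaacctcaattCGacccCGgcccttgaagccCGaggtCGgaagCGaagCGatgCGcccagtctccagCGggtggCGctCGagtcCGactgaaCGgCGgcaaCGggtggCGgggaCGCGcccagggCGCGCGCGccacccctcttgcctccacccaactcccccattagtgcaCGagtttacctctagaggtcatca
Hoxb4: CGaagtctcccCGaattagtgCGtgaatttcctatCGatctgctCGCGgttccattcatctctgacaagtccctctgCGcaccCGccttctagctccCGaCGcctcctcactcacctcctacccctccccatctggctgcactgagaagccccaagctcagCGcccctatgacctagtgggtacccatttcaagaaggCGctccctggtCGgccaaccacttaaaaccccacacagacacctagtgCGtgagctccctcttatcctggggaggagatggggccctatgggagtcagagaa
Hoxc4: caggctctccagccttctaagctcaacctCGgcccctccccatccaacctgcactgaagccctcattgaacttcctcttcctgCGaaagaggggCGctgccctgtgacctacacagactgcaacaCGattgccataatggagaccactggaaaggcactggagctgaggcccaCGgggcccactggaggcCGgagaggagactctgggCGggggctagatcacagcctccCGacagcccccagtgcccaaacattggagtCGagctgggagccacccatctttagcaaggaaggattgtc
The Hoxa5 window is 61.7% G and C with 29 CG dinucleotides, that of Hoxb4 58% with 14 and that of Hoxc4 60.3% with 9. Over 32851 promoters of the table the medians are 52.7% and 7. Motifs were searched on both strands: TGATNNAT, the site of HOX and PBX together, which is in 8.85% of all these promoters; TGACAG, the MEIS site, in 19.2%; TAATTA, a homeodomain core, in 5.29%; the E-box CACGTG, in 7.15%; the CCAAT box CCAAT, in 37.4%; and the TATA-like TATAAA, in 13.6%. The only matches were CCAAT on the opposite strand at base 47 of the Hoxa5 window and at base 253 of the Hoxc4 window. Matches of different motifs could overlap in letters, but each window held at most 1 match. A match is a run of letters and not a measured site.

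Among the genes of the head and neck levels, Hoxb2 and Hoxb3 fell. Hoxb2, needed for facial motor neurons in the hindbrain, had 10.2, 7.39 and 10.6 signal units on the DKO arrays, against 73.0, 77.2 and 80.4 on the WT arrays. The DKO arrays lay at the background level and all WT arrays far above it. The log2 difference was -1.87 ± 0.08 (SE, adjusted p = 3.73e-10 by limma), and DKO cells were at least 8.11-fold lower when their level is set to the background. Such bounds use the background level in place of any lower mean. Hoxb3, which acts with its paralogues in the hindbrain and pharynx, had 13.2, 12.6 and 9.86 on the DKO arrays, against 28.3, 24.5 and 37.3 on the WT arrays. The groups did not overlap, and DKO cells were 2.52-fold lower in mean signal (log2 difference -0.72 ± 0.09, adjusted p = 2.04e-05 by limma). Hoxa3, required for the thymus and parathyroid glands, was close to background in both groups, with 12.6, 11.2 and 11.6 on the DKO arrays, against 10.4, 12.0 and 12.4 on the WT arrays. Its groups overlapped (log2 difference 0.01, 95% interval -0.09 to 0.11). A dimmer Hoxa3 probe set fell, with means of 2.52 on DKO and 7.88 on WT arrays (log2 difference -0.35, adjusted p = 0.00222 by limma over all probe sets). Its WT arrays read 6.68, 12.3 and 4.71. Further dim Hoxa3 probe sets did not pass, with log2 differences of -0.04 and 0.02. The Hoxa3 probe sets thus disagreed, all at or near background.

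Among the genes of the neck and upper trunk, Hoxb4 and Hoxc4 fell most. Hoxc4, which helps pattern the neck and upper thoracic vertebrae, had 9.89, 9.77 and 7.79 on the DKO arrays, against 121.4, 121.0 and 131.9 on the WT arrays. The DKO values were at background and close together. DKO cells were at least 13.2-fold lower (log2 difference -2.48 ± 0.08, adjusted p = 2.53e-11 by limma). Hoxb4, known for expanding blood stem cells, had 11.6, 11.6 and 17.4 on the DKO arrays, against 76.2, 60.0 and 83.4 on the WT arrays. All DKO arrays stayed above the background level and below all WT arrays. The mean was 5.41-fold lower in DKO cells (log2 difference -1.59 ± 0.11, adjusted p = 5.01e-08 by limma), and a second Hoxb4 probe set fell as well, with means of 4.75 on DKO and 14.1 on WT arrays (log2 difference -0.53). Hoxa5, needed for the lung and airways, had 5.64, 5.67 and 5.21 on the DKO arrays, against 23.5, 20.2 and 21.8 on the WT arrays. It was the single cluster A gene above background that fell, at least 2.30-fold (log2 difference -0.81 ± 0.05, adjusted p = 7.13e-09 by limma).

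In the trunk group of number 6 to 8, Hoxb6 and Hoxc6 fell. Hoxb6, a gene of the trunk and limb bud mesoderm, had 3.60, 2.89 and 2.34 on the DKO arrays, against 22.7, 10.7 and 24.1 on the WT arrays. WT replicate 2 was just above the background and the other WT arrays higher, while the DKO arrays were all below it. DKO cells were at least 2.03-fold lower (log2 difference -0.87 ± 0.12, adjusted p = 2.83e-05 by limma). Hoxc6, expressed in the thoracic region and forelimb, had 22.7, 30.7 and 28.0 on the DKO arrays, against 32.6, 31.9 and 37.2 on the WT arrays. The highest DKO array came close to the lowest WT array. Its log2 difference of -0.21 ± 0.08 passed narrowly (adjusted p = 0.0468 by limma), and leaving out any array other than DKO replicate 2 ended the call, with adjusted p of 0.0603 to 0.174. Hoxa7, a thoracic gene, had 16.1, 10.5 and 11.9 on the DKO arrays, against 17.1, 13.8 and 15.04 on the WT arrays. These values overlapped (log2 difference -0.12, 95% interval -0.28 to 0.03, adjusted p = 0.156 by limma), but it passed as lower without DKO replicate 1 (-0.20) and under quantile (-0.17), median (-0.17) and hybridization (-0.24) scaling. One probe set annotated to both Hoxb7 and Hoxb8, and so to neither alone, averaged 4.90 ± 1.28 on DKO arrays and 42.7 ± 13.4 on WT arrays (SD, n = 3 each; log2 difference -1.47 ± 0.13, adjusted p = 5.91e-07 by limma over all probe sets).

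In the lower trunk and tail group, numbered 9 to 13, Hoxb9, Hoxc9 and Hoxc13 fell. Hoxb9, which with its paralogues shapes the ribs, had 6.23, 17.1 and 5.01 on the DKO arrays, against 215.6, 228.2 and 210.2 on the WT arrays. DKO replicate 2 was above background and the other DKO arrays below it, while the WT arrays agreed closely. DKO cells were at least 23.0-fold lower (log2 difference -3.23 ± 0.14, adjusted p = 6.5e-10 by limma). Hoxc9, a thoracic gene that also sets motor neuron columns, had 14.8, 14.1 and 16.02 on the DKO arrays, against 152.9, 138.0 and 142.3 on the WT arrays. Its DKO values were all above background, and the mean was 9.64-fold lower in DKO cells (log2 difference -2.37 ± 0.07, adjusted p = 3.18e-11 by limma). Hoxc13, the hair and nail gene, had 5.44, 8.03 and 7.32 on the DKO arrays, against 168.6, 174.2 and 174.2 on the WT arrays. All its DKO arrays were below background, at least 18.2-fold lower than WT (log2 difference -3.04 ± 0.08, adjusted p = 4.42e-12 by limma).

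Paralogues of the same number 9 in clusters A and D did not pass the test. Hoxd9, which acts in the lower spine and the forelimb, had 26.3, 26.7 and 28.3 on the DKO arrays, against 30.4, 29.9 and 29.7 on the WT arrays. Every DKO array was below every WT array, yet the log2 difference was only -0.09 (95% interval -0.24 to 0.05, adjusted p = 0.239 by limma). It passed as lower with median (-0.16) and hybridization (-0.26) scaling and without the variance trend (-0.09), and as higher with poly-A scaling (0.24). Hoxa9, a gene of the lower trunk and of blood progenitors, had 12.1, 12.99 and 13.8 on the DKO arrays, against 13.8, 13.2 and 12.5 on the WT arrays. The groups overlapped (log2 difference -0.01, 95% interval -0.11 to 0.09), and it passed as lower with hybridization scaling (-0.13) and as higher with poly-A scaling (0.22). A difference between paralogues was not tested, since each is read by its own probes.

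Other probe sets of the HOX genes were read as well. The 33 genes had 48 single-gene probe sets, and 11 genes had several. Of the 15 not used above, 8 fell and 0 rose by limma over all probe sets. They include second probe sets of Hoxa5 (means of 10.3 on DKO and 16.9 on WT arrays, log2 difference -0.32), Hoxb3 (4.39 on DKO and 8.99 on WT arrays, log2 difference -0.28) and Hoxc6 (9.42 on DKO and 17.2 on WT arrays, log2 difference -0.38). Among the 8, the probe sets of Hoxa3, Hoxa4, Hoxb3 and Hoxc5 were below background in both groups. The share of all probe sets that fell was not counted. By gene, 35.5% of all genes fell and 24.3% rose. The probe sets annotated to Hoxd3 and Hoxd4 together did not pass by limma over all probe sets. Means were 13.1 on DKO and 12.4 on WT arrays for the brighter (log2 difference 0.04). For the dimmer they were 3.79 on DKO and 4.88 on WT arrays (log2 difference -0.08). The antisense RNAs Hoxa11os, Hoxb5os and Hoxd3os1 gave 0 calls, and 0 at an unadjusted p of 0.05, by limma; with poly-A scaling all 3 rose. Hoxb5os, the only one above background, averaged 23.7 ± 5.10 on DKO arrays and 19.7 ± 2.41 on WT arrays (SD, n = 3 each).

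The genes beside the clusters moved in both directions. The 4 nearest measured protein-coding genes on each side, a number chosen after the values were seen, made 32 genes, of which 14 rose and 11 fell, where 24.3% of all genes rose and 35.5% fell. Beside cluster B, 5 rose and 1 fell, beside cluster A 1 rose and 4 fell, and beside clusters C and D 4 rose and 3 fell each. Among these 32, Snx10 and Skap2 beside cluster A had the lowest differences. Snx10, a sorting nexin of endosomes, had 62.5, 63.0 and 65.7 signal units on the DKO arrays, against 599.3, 584.8 and 592.4 on the WT arrays, and was 9.29-fold lower (log2 difference -2.93 ± 0.05, adjusted p = 1.2e-13 by limma). Skap2, an adaptor protein of Src family kinases, averaged 111.5 ± 3.76 on DKO arrays and 367.9 ± 9.12 on WT arrays (SD, n = 3 each; log2 difference -1.59 ± 0.05). Both lie next to the low-numbered end, where Hoxa2 was below background in both groups and Hoxa3 did not pass. Beside cluster B, Snx11, a paralogue of Snx10, averaged 108.6 ± 6.50 on DKO arrays and 46.6 ± 3.32 on WT arrays and rose (log2 difference 0.99 ± 0.08). Cbx1, a heterochromatin protein gene, fell there (log2 difference -0.88). Beside cluster D, Lnpk, an endoplasmic reticulum shaping protein gene, averaged 105.8 ± 13.5 on DKO arrays and 183.2 ± 16.4 on WT arrays (SD, n = 3 each; log2 difference -0.71 ± 0.09). Ttc30b, an intraflagellar transport gene on the other side of that cluster, averaged 141.0 on DKO and 16.1 on WT arrays (log2 difference 2.29). In a list of 20 measured flanking genes, 6 rose and 8 fell with a median log2 difference of -0.05, against 13 rising and 3 falling with poly-A scaling and 1 rising and 12 falling with hybridization scaling.

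Partner proteins of the HOX family changed in both directions. Of 8 measured PBX, MEIS and PKNOX genes, 3 rose and 5 fell, a median log2 difference of -0.51 against -0.03 over all genes; 24.3% of all genes rose and 35.5% fell. Meis1 had 92.9, 102.3 and 103.2 on the DKO arrays, against 20.4, 18.7 and 16.5 on the WT arrays, a 5.36-fold higher mean in DKO cells (log2 difference 1.74 ± 0.08, adjusted p = 9.41e-10 by limma). Meis2 averaged 126.8 ± 17.001 on DKO arrays and 49.5 ± 2.79 on WT arrays (SD, n = 3 each; log2 difference 1.12 ± 0.09). Pbx3 averaged 101.4 ± 11.6 on DKO arrays and 265.8 ± 9.83 on WT arrays (log2 difference -1.27 ± 0.07). Pknox2 had 8.97, 5.57 and 9.54 on the DKO arrays, against 52.4, 70.1 and 38.9 on the WT arrays, at least 5.68-fold lower in DKO cells (log2 difference -1.52 ± 0.13). The ParaHox and Evx genes, the nearest relatives outside the clusters' HOX genes, gave 0 calls of 8 by limma, with 1 higher and 0 lower at an unadjusted p of 0.05, although 7 rose with poly-A scaling and 5 fell with hybridization scaling. Gsx1 was that gene, with 12.0 ± 0.773 on DKO arrays and 10.1 ± 0.925 on WT arrays (SD, n = 3 each). Of these 8 ParaHox and Evx genes, 4 were below the background level in both groups. The other 4 were close to it, the highest mean being 13.8 for Evx2 on WT arrays. Such signals do not show that these genes were used in either group.

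Among the keepers of HOX expression, more members fell than rose in the deposited scaling, as with hybridization scaling, but poly-A scaling turned both counts. Of 28 measured Polycomb genes, 18 fell and 6 rose (64.3% falling, against 35.5% of all genes), and 9 fell and 13 rose with poly-A scaling. Of 16 Trithorax genes and H3K27 demethylases, 9 fell and 5 rose, and 4 fell and 7 rose with poly-A scaling. The median log2 difference was -0.42 in each list. Ezh2, the methyltransferase of Polycomb repressive complex PRC2, had 351.4, 309.4 and 284.0 on the DKO arrays, against 1284, 1291 and 1235 on the WT arrays, a 4.03-fold lower mean (log2 difference -1.96 ± 0.06, adjusted p = 3.57e-11 by limma). Kdm2b, which brings a form of the other Polycomb complex, PRC1, to CG-rich DNA, fell by 1.36 on the log2 scale. Pcgf5, a subunit of a form of PRC1, fell by 1.26 on the log2 scale. Phc3, another PRC1 subunit, rose, with 571.2 ± 1.72 on DKO arrays and 166.2 ± 5.98 on WT arrays (SD, n = 3 each; log2 difference 1.69 ± 0.04). Psip1, whose protein LEDGF tethers the MLL histone methyltransferase to chromatin, had 115.2, 133.6 and 126.4 on the DKO arrays, against 807.9, 828.2 and 809.8 on the WT arrays, a 6.52-fold lower mean (log2 difference -2.56 ± 0.05, adjusted p = 7.61e-13 by limma). Dpy30 and Ash2l, core parts of MLL complexes, fell by 1.89 and 1.01 on the log2 scale, and Kdm6a, a demethylase of the PRC2 mark, by 1.21. The 5 members of that list that rose were histone methyltransferase genes. They were Kmt2a (log2 difference 0.63), Kmt2b (0.21), Kmt2c (0.27), Kmt2d (0.59) and Setd1b (0.55). With hybridization scaling 3 of the list rose. Apart from these risen Trithorax members, the calls of the members named held in every alternative run.

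In the retinoic acid pathway 8 of 16 measured genes rose and 2 fell, Rxrb and Crabp2, with a median log2 difference of 0.24, where 24.3% of all genes rose and 35.5% fell. The Crabp2 call (log2 difference -0.13, adjusted p = 0.0456 by limma), close to background, was lost in 11 alternatives. With poly-A scaling 13 rose and 1 fell, and with hybridization scaling 8 rose and 4 fell. Aldh1a1, which makes retinoic acid, had 1817, 1906 and 1972 on the DKO arrays, against 3.52, 3.25 and 3.17 on the WT arrays. WT cells were below background, and DKO cells were at least 200.4-fold higher (log2 difference 6.63 ± 0.05, adjusted p = 4.8e-16 by limma). Rarb, a retinoic acid receptor and itself a known target of retinoic acid, had 772.1, 718.3 and 714.5 on the DKO arrays, against 5.86, 5.45 and 4.52 on the WT arrays, at least 77.6-fold higher (log2 difference 5.14 ± 0.06, adjusted p = 1.32e-14 by limma). Dhrs3, which turns retinal back to retinol, averaged 405.1 ± 49.3 on DKO arrays and 33.7 ± 3.42 on WT arrays (log2 difference 3.08 ± 0.09). Rdh10, which makes retinal, averaged 1259 ± 58.2 on DKO arrays and 169.5 ± 5.38 on WT arrays (all SD, n = 3; log2 difference 2.78 ± 0.05). None of the 33 HOX genes rose in the deposited scaling (0 at an unadjusted p of 0.05 by limma). A link between retinoic acid and the HOX genes was not tested.

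Other genes of body position also differed. Of 35 measured limb and body region transcription factors, 11 rose and 7 fell, with a median log2 difference of 0.01, where 24.3% of all genes rose and 35.5% fell. With poly-A scaling 26 rose and 4 fell, and with hybridization scaling 9 rose and 16 fell. Prrx1, a limb and craniofacial mesenchyme factor that is also among the fibroblast markers above, had 2835, 3009 and 2819 on the DKO arrays, against 126.5, 138.4 and 142.2 on the WT arrays, a 21.3-fold higher mean (log2 difference 4.26 ± 0.05, adjusted p = 6.55e-15 by limma). Lmx1b, the dorsal limb factor, had 76.9, 105.5 and 127.8 on the DKO arrays, against 8.48, 6.99 and 10.5 on the WT arrays, at least 10.9-fold higher (log2 difference 2.26 ± 0.13). Alx1, a craniofacial factor, averaged 5.18 ± 0.879 on DKO arrays and 87.9 ± 7.86 on WT arrays (SD, n = 3 each), at least 9.28-fold lower (log2 difference -2.29 ± 0.08). Foxd1, known from kidney stroma, averaged 50.4 ± 2.19 on DKO arrays and 223.8 ± 10.6 on WT arrays (SD, n = 3 each; log2 difference -1.85 ± 0.06).

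**Figure D3:**
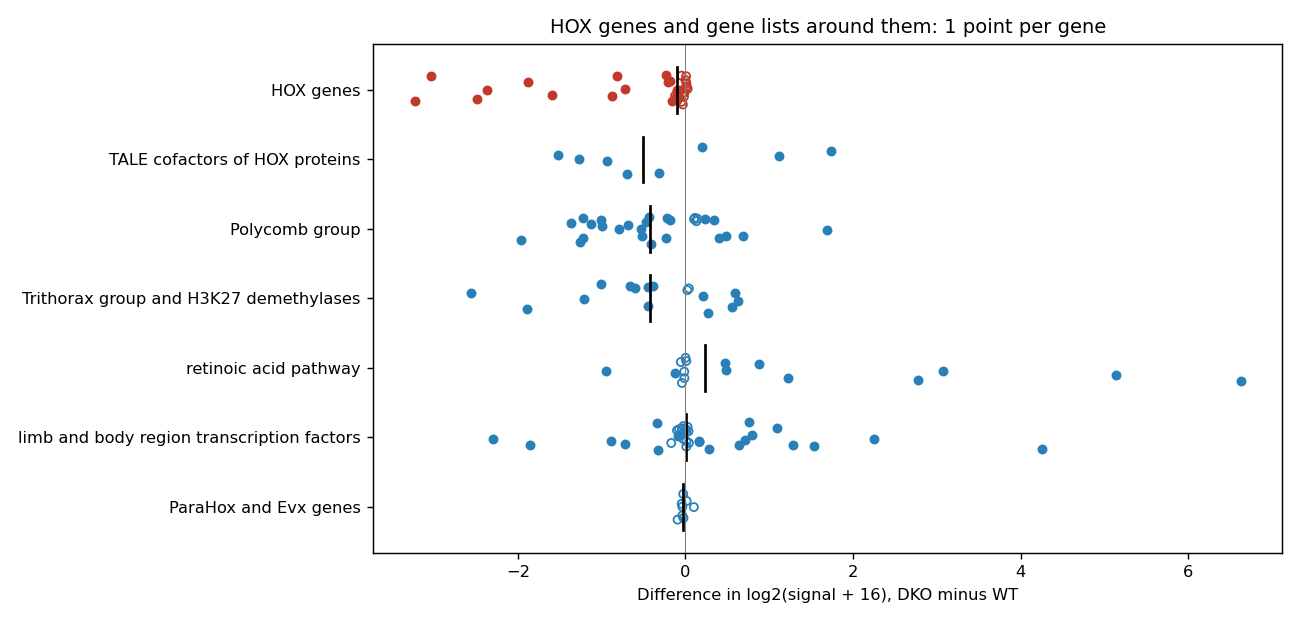
Log2 difference, DKO minus WT, of each measured protein-coding HOX gene and of each measured member of the lists shown. The lists are the PBX, MEIS and PKNOX, Polycomb, Trithorax and H3K27 demethylase, retinoic acid, limb and body region, and ParaHox and Evx genes. Filled points passed at an adjusted p of 0.05 and vertical bars are list medians. The HOX genes reach from near 0 down to -3.23 with 0 rising in the deposited scaling (9 with poly-A scaling), whereas the retinoic acid list reaches 6.63.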

How the data were processed

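Affymetrix arrays of 3 DKO and 3 WT samples were analysed. The authors deposited linear intensities per probe set. The submitters' processing notes name MAS5; which version and scaling is not given in the sources used here. Biotin-labelled RNA was made from 6 µg, per the labels' protocols. Of 45101 probe sets, 64 were controls, 34945 had 1 gene symbol, 932 several and 9160 were unnamed here; 34741 symbols matched RefSeq (GRCm38.p6) by Entrez number, used for names and gene order only. The gene tests used only probe sets with 1 symbol.

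Signals were taken as log2(signal + 16), so fold changes of dim genes are understated. Each of 18193 genes was read by its single-gene probe set with the highest mean. DKO minus WT was fitted in R 4.3.3 with limma 3.58.1 (lmFit, eBayes with trend). Tests were two-sided, adjusted over all genes by Benjamini-Hochberg, with a threshold of 0.05; single probe sets entered a fit of their own, with every probe set in it. The number of arrays limits the precision. The members, lists and tests were chosen with earlier results of these data known. Single HOX genes were named where a group mean was above the background level; of each other list and of the markers, the 4 members (or fewer) that differed most, past the threshold and above that level, and genes flanking a cluster, were named. Genes in counts of 5 or fewer, and Cbx1, Ttc30b, Gsx1, Col1a1 and Col5a1 were named after their values were seen. Alternatives were offsets of 1 and 64, 4 other scalings (quantile, median, poly-A and hybridization spike controls), dim genes left out, probe sets averaged or cross-matching ones (names ending x, s or a) left out, other variance models, a replicate block, and leaving out each array. The fit was checked on simulated data. Figures were drawn with matplotlib 3.10.9.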

Additional observations from a re-analysis of the deposited data

How the results depend on the processing

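The falls of Hoxb2, Hoxb4, Hoxb9, Hoxc4, Hoxc9 and Hoxc13 held in the 19 settings run, counting the main one, with log2 differences of -4.57 to -0.82 and adjusted p of at most 1.69e-05 by limma; the ends come from offsets of 1 and 64. The number of HOX genes that fell was 10 with poly-A scaling and 10 with dim genes left out, where 14 were tested, 14 to 18 when 1 array was left out, 23 with median centring and 27 with hybridization scaling. The number that rose was 9 with poly-A scaling and 0 in the other settings. The offset moved the number falling 2-fold on the offset scale to 9 (offset of 1) and 4 (offset of 64). Over all genes, poly-A scaling gave 2827 falling and 10424 rising and hybridization scaling 10722 falling and 3045 rising; their controls differed by -0.52 and 0.26 between DKO and WT arrays on the log2 scale, and the median of all genes moved to 0.12 and -0.12. The share of rising genes among calls was 22.1% with hybridization scaling.

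Of 251 values of the 14 HOX genes above background, 232 kept direction and call, 9 gained a call (Hoxa3, Hoxa7, Hoxa9 and Hoxd9), 6 lost it (Hoxc6) and 4 turned: Hoxa3 with probe sets averaged (-0.092), and Hoxa9 (0.22), Hoxc6 (0.12) and Hoxd9 (0.24) with poly-A scaling. Hoxc6 also lost its call without probe sets of the x, s and a types (adjusted p = 0.0537 by limma), where its value was unchanged, 16591 genes were tested and Hoxb6 had no probe set. The 429 values of the 24 members named for the largest differences of their lists, Crabp2 and Gsx1 not among them, kept direction and call. With a replicate block 19 HOX genes fell; same-numbered arrays deviated together by only 0.04, 0.12 and 0.17 (correlation across genes), each array most with its own number, a hint from the data and not the design. The background level, taken from other genes, limits what dim probe sets show.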
